A study of Mus musculus with 5 samples.

Results

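Transcripts for renal phosphate reabsorption and for the sodium-proton and sodium-bicarbonate exchange that works beside it were compared between kidneys of mice given DMXAA and kidneys of mice given vehicle. The group holds 8 genes, chosen by symbol: the sodium-phosphate carriers Slc34a1, Slc34a3, Slc20a1 and Slc20a2, the sodium-proton exchanger Slc9a3, the sodium-bicarbonate cotransporter Slc4a4, and the scaffold proteins Slc9a3r1 and Pdzk1. Each matched 1 row among the 54532 gene IDs of the count table, and all 8 passed the expression filter. DMXAA binds and activates STING of the mouse, through which cells that sense DNA in the cytosol induce interferon. The DMXAA group had 2 libraries, from wild-type C57BL/6J males aged 8 weeks that received 10 mg/kg intraperitoneally each day for 3 days, with kidneys taken on day 3. The vehicle group had 3 libraries, from mice of the same strain, genotype, sex and age with the same injection schedule. The labels give kidney as the tissue, without a region, and number the samples as replicates. They do not say whether a sample is 1 mouse, so a p-value here measures the spread between samples, which may be technical.

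Filtered phosphate is recovered in the proximal tubule. NaPi-IIa, encoded by Slc34a1, and NaPi-IIc, encoded by Slc34a3, carry it with sodium across the brush border, and parathyroid hormone and FGF23 lower the amount of these carriers in that membrane. NHE3, encoded by Slc9a3, exchanges luminal sodium for protons in the same membrane, and NBCe1, encoded by Slc4a4, returns sodium with bicarbonate to the blood side. NHERF1, encoded by Slc9a3r1, and PDZK1 hold carriers in the microvilli through PDZ domains. PiT-1 and PiT-2, encoded by Slc20a1 and Slc20a2, are sodium-phosphate carriers made in most tissues, and PiT-2 has also been placed in the proximal brush border of the rat.

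The promoters of these genes differ in sequence type. RefSeq promoter windows on GRCm38.p6, 250 bases before to 50 after an annotated start, were held for 7 of the 8 genes, all but Slc20a2, with 10 windows in all. A set of 5 windows is printed 5′ to 3′ on the gene's strand, to set CpG-poor windows of Slc34a1, Slc34a3 and Pdzk1 beside CpG-rich ones of Slc9a3 and Slc20a1. Capitals mark each CpG. The windows are chr13:55399398-55399697 (plus strand) for Slc34a1, chr2:25234185-25234484 (minus) for Slc34a3, chr3:96829815-96830114 (plus) for Pdzk1, chr13:74121163-74121462 (plus) for Slc9a3 and chr2:129198523-129198822 (plus) for Slc20a1.
Slc34a1: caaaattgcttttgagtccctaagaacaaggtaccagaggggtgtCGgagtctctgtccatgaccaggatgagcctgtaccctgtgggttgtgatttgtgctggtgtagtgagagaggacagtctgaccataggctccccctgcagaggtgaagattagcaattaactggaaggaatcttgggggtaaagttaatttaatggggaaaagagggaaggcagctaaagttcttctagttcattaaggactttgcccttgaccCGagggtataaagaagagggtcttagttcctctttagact
Slc34a3: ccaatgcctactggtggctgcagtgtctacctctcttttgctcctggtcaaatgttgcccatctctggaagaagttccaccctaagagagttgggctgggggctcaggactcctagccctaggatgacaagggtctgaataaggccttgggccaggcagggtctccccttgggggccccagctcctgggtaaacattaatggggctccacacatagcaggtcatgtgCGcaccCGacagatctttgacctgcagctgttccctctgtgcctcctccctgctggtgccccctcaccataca
Pdzk1: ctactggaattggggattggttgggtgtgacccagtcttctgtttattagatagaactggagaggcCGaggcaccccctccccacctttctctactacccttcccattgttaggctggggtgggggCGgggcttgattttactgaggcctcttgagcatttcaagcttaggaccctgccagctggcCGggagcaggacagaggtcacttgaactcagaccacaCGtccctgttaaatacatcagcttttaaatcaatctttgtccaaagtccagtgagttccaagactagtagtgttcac
Slc9a3: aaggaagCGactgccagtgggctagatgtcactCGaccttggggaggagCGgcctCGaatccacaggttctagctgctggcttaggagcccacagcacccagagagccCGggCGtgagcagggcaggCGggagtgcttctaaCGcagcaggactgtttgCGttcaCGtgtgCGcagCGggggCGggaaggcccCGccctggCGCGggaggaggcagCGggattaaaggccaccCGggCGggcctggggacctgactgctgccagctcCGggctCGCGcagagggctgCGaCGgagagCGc
Slc20a1: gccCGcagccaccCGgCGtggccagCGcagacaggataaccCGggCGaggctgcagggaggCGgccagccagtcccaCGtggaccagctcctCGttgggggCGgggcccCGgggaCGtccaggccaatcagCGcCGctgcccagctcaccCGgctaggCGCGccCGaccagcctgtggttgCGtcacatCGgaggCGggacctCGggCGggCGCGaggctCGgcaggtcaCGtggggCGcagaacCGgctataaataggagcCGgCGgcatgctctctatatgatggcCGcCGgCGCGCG
The Slc34a1 window held 2 CpG, an observed over expected ratio of 0.131, and the Slc34a3 window 2 CpG at 0.0808. The Pdzk1 window held 4 at 0.205. The Slc9a3 window held 25 at 0.727 and the Slc20a1 window 36 at 0.903, against a median ratio of 0.384 over all 32851 windows. The window of the other scaffold gene, Slc9a3r1, was CpG-rich too, with 27 at 0.882. Slc4a4 had windows of both kinds, 50 CpG at chr5:88887010-88887309 and 3 at chr5:89027716-89028015. Slc20a1 also did, with a second window at chr2:129206846-129207145 that held 6 CpG at 0.302, and the second Pdzk1 window, chr3:96831921-96832220, held 7 at 0.364. The counts per gene pool the transcripts of all starts. The 10 windows were searched on both strands for an interferon-response element (GAAA and GAAA with 2 bases between them, present in 3.44% of all windows), a STAT site (TTCNNNGAA, 8.30%), an HNF1 site (GTTAAT and ATTAAC with 1 base between them, 0.00913%) and an HNF4 site (CAAAGTCCA, 0.475%). Only the HNF4 letters were found, once, in the printed Pdzk1 window, starting 14 bases after the start site.

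The libraries held 17667490 to 20264228 counts, and the 8 genes had from 384 counts (Slc20a1, DMXAA library 1) to 84795 counts (Slc34a1, DMXAA library 2). Markers of the thick ascending limb (led by Umod), distal convoluted tubule, collecting duct, podocytes and proximal tubule were detected in all 5 libraries. A summed set of 4 interferon-response genes, led by Irf7, was at 449 and 603 CPM (counts scaled to library size) in the DMXAA libraries, against 111, 269 and 134 CPM in the vehicle libraries. Vehicle library 1 stood apart: 6 adipocyte markers summed to 390 CPM there and to 27.7 to 55.4 CPM in the other 4 libraries, led by Fabp4, and 7 urothelial markers to 184 CPM, against 2.445 to 23.35 CPM, led by Psca, while its proximal tubule sum was the lowest. Principal cell markers of the collecting duct, led by Aqp2, were high there too, at 981 CPM where no other library passed 472 CPM. Intercalated cell markers were not, at 131.6 CPM there and 132.2 to 195.8 CPM in the others. Inner medulla markers stood at 261 CPM there, were lowest in vehicle library 2 (64.35 CPM) and lay between 132 and 153 CPM elsewhere. Red cell markers were lower in both DMXAA libraries, at 45.3 and 25.6 CPM in the DMXAA libraries, against 245, 145 and 64.6 CPM in the vehicle libraries. The part of these cell types in the results was not tested. Adipoq, which defines adipocytes, was at 36.8 CPM in vehicle library 1 and at 0 to 0.887 CPM in the others. Without that library the log2 fold changes of Slc9a3, Pdzk1, Slc34a3 and Slc4a4 were 0.51, 0.55, 0.33 and 0.24. Vehicle library 2 had the highest interferon-response sum of its group, through Irf7 and Isg15 only. Among vehicle libraries Rsad2 peaked in library 3 and Ifi44 in library 1, so the set did not mark library 2 as a whole. Without vehicle library 2 Slc34a1 was at 0.31, Slc9a3r1 at 0.39 and Slc20a2 at -0.15. None of the 8 was called by edgeR in either case.

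Levels of different genes were compared as TPM, in which counts are divided by the length of all annotated exons and scaled to the same sum in each library. Slc34a1 was the most abundant of the 8, at 2178 and 2467 TPM in the DMXAA libraries and 2081, 2155 and 1703 TPM in the vehicle libraries, rank 30 of 16226 tested genes. Slc9a3r1 followed with a mean of 481 TPM, Pdzk1 with 415.5, Slc4a4 with 274, Slc9a3 with 91.4, Slc34a3 with 53.8, Slc20a2 with 24.7 and Slc20a1 with 13.0 TPM over the 5 libraries. The ranges of Slc9a3r1 and Pdzk1 overlapped, and Pdzk1 was the higher of the pair only in DMXAA library 2, by 0.019 on the log2 scale. The order of this pair rests on the length used. All annotated exons of Pdzk1 span 3556 bases and its longest transcript 2711, while both lengths are 1925 for Slc9a3r1. Pdzk1 and Slc4a4, and likewise Slc9a3 and Slc34a3, had overlapping ranges although the first of each pair was higher within every library. All other neighbours in this order were separated in all 5 libraries. Shares were taken of the summed length-scaled level of Slc34a1, Slc34a3, Slc20a1 and Slc20a2, with no Slc17 gene counted. Of that sum Slc34a1 took 95.96% in each DMXAA library, against 95.8, 96.2 and 95.2% in the vehicle libraries, and Slc34a3 took 2.56 and 2.63%, against 2.30, 2.06 and 2.66%. The groups overlapped for both, and the difference for Slc34a1 changed sign without vehicle library 3.

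**Figure D1:**
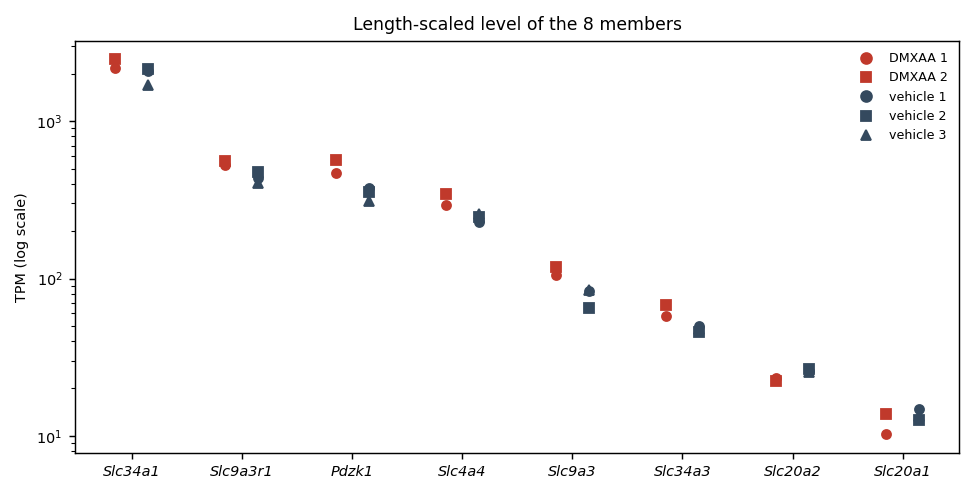
Length-scaled level (TPM, log axis) of the 8 genes in each library, ordered by mean, with DMXAA libraries in red left of vehicle libraries in dark blue and marker shape giving the replicate. Slc34a1 lies at 1703 to 2467 TPM and Slc20a1, the lowest, at 10.3 to 14.9 TPM.

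Of the 8 genes, 6 had higher estimates in the DMXAA kidneys (4 when scaled to proximal tubule genes, as given further on), with Pdzk1 at 1.46-fold and Slc9a3 at 1.42-fold the highest. Over all 16226 tested genes, 7614 had estimates above 0 with all-gene scaling. The 2 PiT genes had lower estimates under every scaling run. The quasi-likelihood test of edgeR, with Benjamini-Hochberg adjustment over all 16226 genes, called none of the 8 and 0 genes in the whole table. DESeq2 called 58 genes (0.405% of those it gave an adjusted p, 0.342% higher in DMXAA), among them 1 of the 8, Slc9a3. At an unadjusted p below 0.05, edgeR listed 3 of the 8 as higher, Slc9a3, Pdzk1 and Slc34a3, and none as lower, where 3.89% of all genes were higher and 2.65% lower at that limit (6.55% in either direction, 1062 genes). In 5 of the 8 both DMXAA libraries lay above all vehicle libraries, against 13.7% of all genes, and in 1, Slc20a2, both lay below, against 12.3%, so 6 of the 8 did not overlap, against 26% of all genes. The median log2 fold change was 0.30, against -0.015 over all tested genes. In bulk tissue, more RNA per cell and more cells of a type cannot be told apart.

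**Figure D2:**
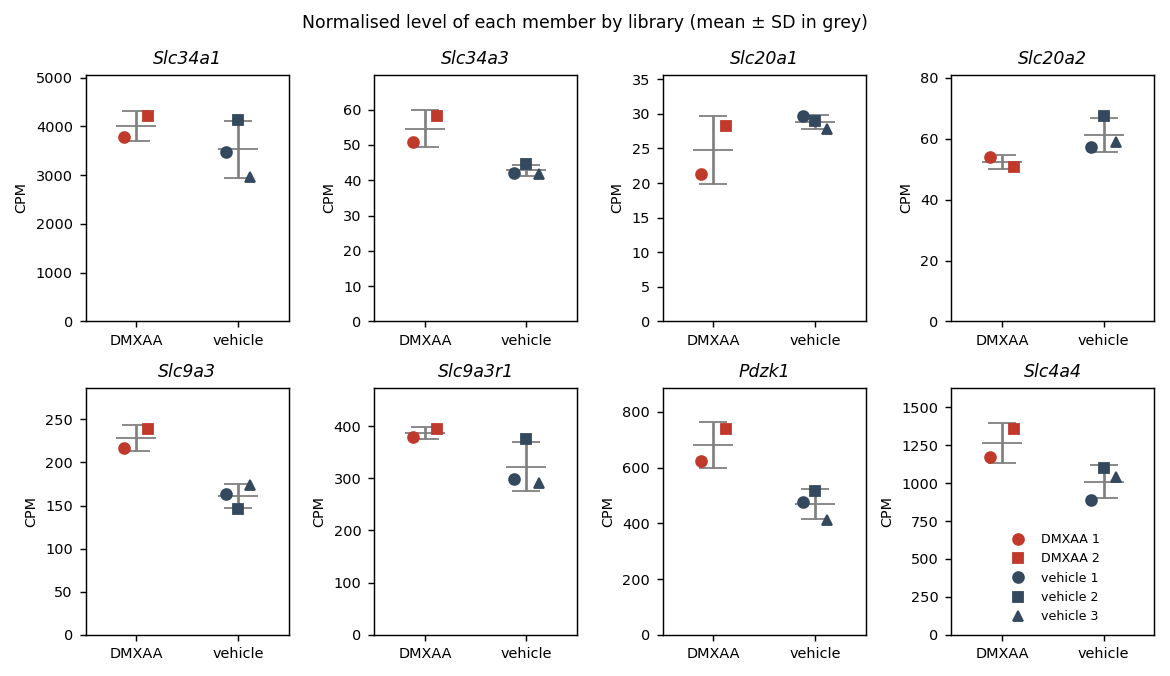
Normalised level (CPM, counts scaled to library size) of each gene, DMXAA libraries left and vehicle libraries right, axes from 0, with marker shape giving the replicate and grey bars the mean ± SD (n = 2 DMXAA, n = 3 vehicle). Both DMXAA points of Slc34a3, Slc9a3, Slc9a3r1, Pdzk1 and Slc4a4 lie above all vehicle points, and both of Slc20a2 lie below.

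Among the phosphate carriers the minor NaPi-II gene stood further apart than the major one. Slc34a3 (ENSMUSG00000006469, mm10 chromosome 2, 25228898 to 25234364) had 50.9 and 58.3 CPM in the DMXAA libraries, against 42.1, 44.5 and 41.8 CPM in the vehicle libraries. The groups did not overlap, and the vehicle values lay close together. Its log2 fold change was 0.35 (SE 0.097, edgeR adjusted p = 0.724, unadjusted p = 0.00918), a 1.28-fold higher level with a 95% interval of 0.12 to 0.58 on the log2 scale. Slc34a1 (ENSMUSG00000021490, chromosome 13, 55398187 to 55415592) had 3788 and 4218 CPM in the DMXAA libraries, against 3483, 4133 and 2967 CPM in the vehicle libraries. Vehicle library 2 lay between the DMXAA libraries, so the groups overlapped. The log2 fold change was 0.18 (SE 0.20, edgeR adjusted p = 0.843), with a 95% interval of -0.28 to 0.65. It was 0.31 without vehicle library 2, 0.071 without vehicle library 3 and 0.10 without DMXAA library 2. The log2 ratio of Slc34a1 to Slc34a3, from counts per kilobase, was 5.23 and 5.19 in the DMXAA libraries, against 5.38, 5.55 and 5.16 in the vehicle libraries, a difference of -0.16 that did not separate the groups (exact permutation p = 0.6, two-sided) and was -0.064 without vehicle library 2 and -0.26 without vehicle library 3.

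The PiT genes had estimates below 0. Slc20a1 (ENSMUSG00000027397, chromosome 2, 129198764 to 129211616), which encodes PiT-1, had 21.3 and 28.2 CPM in the DMXAA libraries, against 29.7, 29.0 and 27.8 CPM in the vehicle libraries. DMXAA library 1 was low while DMXAA library 2 lay within the vehicle range. The log2 fold change was -0.22 (SE 0.14, edgeR adjusted p = 0.775), and it was -0.025 without DMXAA library 1 and -0.43 without DMXAA library 2. Slc20a2 (ENSMUSG00000037656, chromosome 8, 22476788 to 22569612), which encodes PiT-2, had 53.9 and 50.7 CPM in the DMXAA libraries, against 57.3, 67.5 and 58.8 CPM in the vehicle libraries. The nearest libraries of the 2 groups differed by -5.97%, with a counting error of 4.44% on that difference, so the separation is narrow. Its log2 fold change was -0.23 (SE 0.11, edgeR adjusted p = 0.749), and -0.15 without vehicle library 2. Their shares of the summed level of these 4 carriers were lower in both DMXAA libraries: Slc20a1 took 0.452 and 0.538%, against 0.6855, 0.566 and 0.747% in vehicle, and Slc20a2 took 1.03 and 0.8675%, against 1.19, 1.18 and 1.42% in vehicle. Each of these differences had an exact permutation p of 0.2 (two-sided), and 0.533 after adjustment over the 8 shares and ratios tested. The value of 0.2 is the smallest that the two-sided form used here can give with 2 against 3 libraries. Slc34a1 made up most of that sum, so these shares largely repeat its ratios to the PiT genes. Those ratios are given further on, beside the share of all genes that were as separated.

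The sodium-proton exchanger had the smallest p-value of the 8. Slc9a3 (ENSMUSG00000036123, chromosome 13, 74121457 to 74169442) had 217 and 239 CPM in the DMXAA libraries, against 163, 146 and 173 CPM in the vehicle libraries. The nearest libraries differed by 25.2%, with a counting error of 2.40%. The log2 fold change was 0.50 (SE 0.11, edgeR adjusted p = 0.629, unadjusted p = 0.00276), and DESeq2 gave 0.50 with an adjusted p of 0.0235. That DESeq2 call was kept without vehicle library 1 (adjusted p = 0.031) and without vehicle library 2 (0.033), and was lost without vehicle library 3 (0.0675), DMXAA library 1 (0.59) or DMXAA library 2 (1.0), with estimates of 0.43 to 0.58 throughout. Slc4a4 (ENSMUSG00000060961, chromosome 5, 88886818 to 89239653), the basolateral exit step for bicarbonate, had 1173 and 1357 CPM in the DMXAA libraries, against 888, 1097 and 1041 CPM in the vehicle libraries. The groups did not overlap, with a log2 fold change of 0.33 (SE 0.15, edgeR adjusted p = 0.741) and an interval of -0.025 to 0.68. The log2 ratio of Slc9a3 to Slc4a4 was -1.46 and -1.53 in the DMXAA libraries, against -1.47, -1.94 and -1.61 in the vehicle libraries, a difference of 0.18 that did not separate the groups (exact permutation p = 0.4, two-sided) and was 0.044 without vehicle library 2 and 0.28 without vehicle library 1.

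Both scaffold genes had estimates above 0 with all-gene scaling, and Slc9a3r1 turned just below 0 with proximal tubule scaling. Pdzk1 (ENSMUSG00000038298, chromosome 3, 96829284 to 96870926) had 623 and 739 CPM in the DMXAA libraries, against 476, 517 and 411 CPM in the vehicle libraries. All DMXAA values were higher, and the nearest libraries differed by 20.4%. The log2 fold change was 0.54 (SE 0.14, edgeR adjusted p = 0.724, unadjusted p = 0.00728), and DESeq2 gave an adjusted p of 0.0604, which was 0.0325 without vehicle library 1, 0.00246 without vehicle library 2 and 0.272 to 1.0 without any other library. Slc9a3r1 (ENSMUSG00000020733, chromosome 11, 115163341 to 115181181) had 379 and 395 CPM in the DMXAA libraries, against 299, 376 and 290 CPM in the vehicle libraries. Its groups were separated by 0.754% between DMXAA library 1 and vehicle library 2, less than the counting error of 1.73%, and the log2 fold change was 0.26 (SE 0.14, edgeR adjusted p = 0.750). DESeq2 called it only without vehicle library 2 (0.39, adjusted p = 0.0241). Slc34a1 was less abundant relative to Pdzk1 in both DMXAA libraries: the log2 ratio was 2.21 and 2.12, against 2.48, 2.60 and 2.46 in vehicle, a difference of -0.35 (exact permutation p = 0.2, two-sided, 0.533 adjusted over 8). This was not particular to Slc34a1. The ratios of Slc34a3 (difference -0.19), Slc9a3r1 (-0.27) and both PiT genes to Pdzk1 were also lower without overlap, and those of Slc9a3 and Slc4a4 overlapped. How many of all genes were as separated from Pdzk1 was not counted. The log2 ratio of Slc9a3 to Slc9a3r1 was -2.32 and -2.24 in the DMXAA libraries, against -2.39, -2.88 and -2.26 in the vehicle libraries (exact permutation p = 0.4, two-sided), a difference of 0.23 that was 0.045 without vehicle library 2 and 0.36 without vehicle library 3. The strand setting of the counting is not given in the sources used here, and 1333 of the 3556 exon bases of Pdzk1 overlap exons of Gpr89 on the other strand. Gpr89 itself had 25.6 and 26.5 CPM in the DMXAA libraries, against 27.4, 30.4 and 26.7 CPM in the vehicle libraries. Slc34a1 shares 545 of 4676 exon bases with Pfn3, which had 0 counts in all 5 libraries, Slc20a1 shares 452 of 5580 with 9830144P21Rik (2.13 CPM in DMXAA and 1.01 CPM in vehicle on average), and Slc20a2 shares 95 of 6216 with Smim19. Smim19 had 24.5 and 22.3 CPM in the DMXAA libraries, against 28.5, 32.9 and 26.0 CPM in the vehicle libraries, so its groups did not overlap either (log2 fold change -0.32, SE 0.13, edgeR unadjusted p = 0.0458). Its part in the Slc20a2 estimate was not tested.

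The estimates depended on what the libraries were scaled to. The marker genes of the proximal tubule, a list of 14 transporters, endocytic receptors and transcription factors without any of the 8, led by Lrp2, summed to 7816 and 8127 CPM in the DMXAA libraries, against 5771, 7571 and 6457 CPM in the vehicle libraries, with both DMXAA sums above all vehicle sums. When libraries were scaled to that sum instead of to all genes, the median of all tested genes was -0.30, against -0.015 with all-gene scaling. On that scale Pdzk1 was at 0.26, Slc9a3 at 0.20, Slc34a3 at 0.065 and Slc4a4 at 0.048. Slc9a3r1 turned to -0.0096 and Slc34a1 to -0.096, while Slc20a1 was at -0.51 and Slc20a2 at -0.51, both below the median of all genes. None of the 8 was called. The part of the proximal tubule share of each sample in the estimates was not tested.

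**Figure D3:**
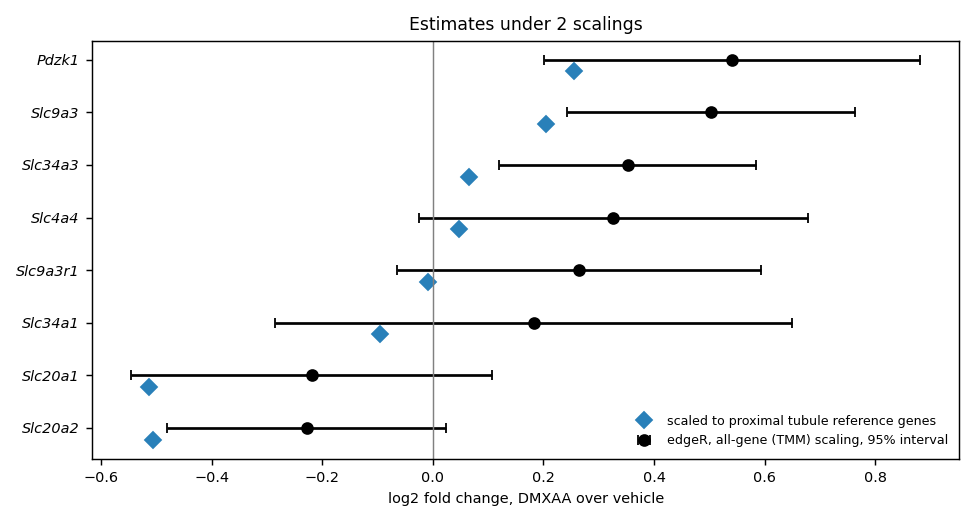
Log2 fold change, DMXAA over vehicle, of the 8 genes with all-gene scaling (black, bars the 95% interval) and with scaling to the proximal tubule genes (blue, no interval). Under all-gene scaling the intervals of Pdzk1, Slc9a3 and Slc34a3 lie above 0, and under proximal tubule scaling the estimates run from -0.51 for Slc20a1 to 0.26 for Pdzk1.

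Ratios within a library do not depend on either scaling. The log2 ratio of Slc9a3 to Slc20a1 was 3.37 and 3.10 in the DMXAA libraries, against 2.48, 2.35 and 2.66 in the vehicle libraries. The ratio of Pdzk1 to Slc20a2 was 4.34 and 4.67, against 3.86, 3.74 and 3.61. In all 12 ratios of the 6 other genes to a PiT gene, both DMXAA libraries lay above all vehicle libraries, with mean differences of 0.42 (Slc34a1 to Slc20a2) to 0.78 (Pdzk1 to Slc20a1). These ratios share their denominators and were formed after the values were seen. Of all tested genes, 25.9% were as separated upward in their ratio to Slc20a1 and 41.4% in their ratio to Slc20a2.

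**Figure D4:**
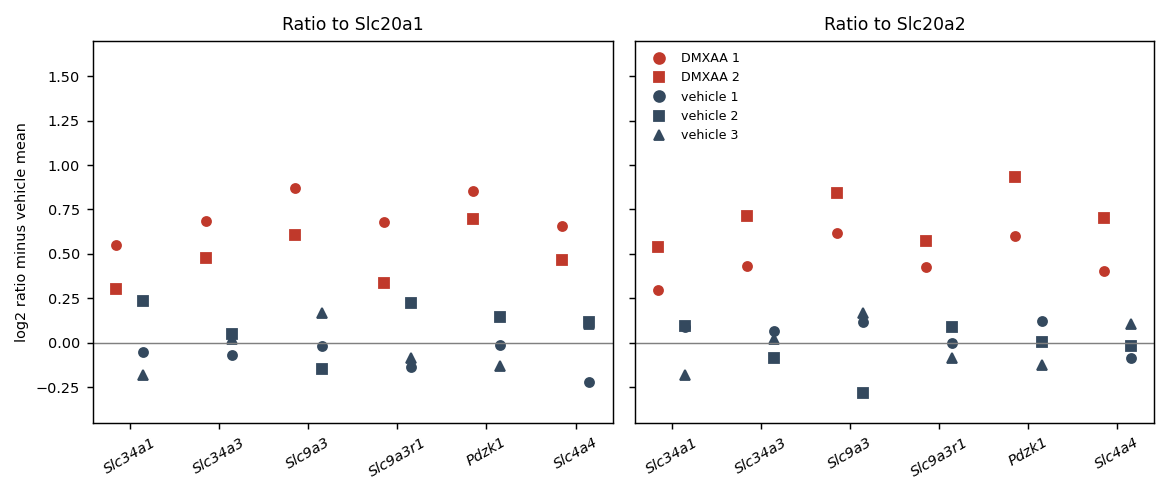
Log2 ratio of each of the 6 other genes to Slc20a1 (left) and to Slc20a2 (right), counts per kilobase, with the vehicle mean set to 0. Each red DMXAA point lies above the 3 dark blue vehicle points of the same gene, and the mean differences are 0.42 to 0.78.

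The 8 genes did not share 1 profile over the libraries. Profiles were compared by the root mean square (RMS) difference between log2 CPM values, each gene centred on its mean over the 5 libraries. The closest pairs were Slc34a1 with Slc9a3r1 (RMS 0.077) and Slc34a3 with Slc4a4 (0.085), and the most distant pair was Pdzk1 with Slc20a2 (0.398). Slc34a1 and Slc9a3r1 had in common that vehicle library 2 was near the DMXAA level, at 0.16 and 0.12 on the centred scale, while vehicle library 3 was at -0.31 and -0.25. Slc9a3 differed from them in that library 2 was the lowest vehicle sample, at -0.34. Of all 16226 tested genes, those nearest to Slc34a1 were Psmg3 (0.021) and Ppcs (0.028), and those nearest to Slc9a3r1 were Gm17586 (0.0071) and Psmc5 (0.021). Nearest to Slc9a3 were Wdfy3 (0.035) and Snw1 (0.037), to Pdzk1 Pik3c2g (0.030) and Fbxo40 (0.043), to Slc4a4 Dnajc13 (0.033) and Myo7a (0.041), and to Slc34a3 Rnf169 (0.0246) and Znfx1 (0.0247). The PiT genes had Brk1 (0.0094) and Faap100 (0.019) nearest to Slc20a2, and N4bp2os (0.026) and Kctd11 (0.027) nearest to Slc20a1. These distances describe 5 libraries and say nothing of shared function or control.

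Other genes of these pathways were counted in 8 lists, and edgeR called 0 genes in each, with adjustment over all tested genes. Without the expression filter it called Cyp24a1 and Slc5a12, 1 gene in each of 2 lists. Directions are given with all-gene scaling, and beside them the count with proximal tubule scaling, which lowers every estimate with the median of all genes. With all-gene scaling, 7614 of all 16226 tested genes had estimates above 0, and 3.89% were higher at an unadjusted p below 0.05 (edgeR). Of 8 other phosphate carriers 7 were matched by symbol and 6 were tested. All 6 had estimates above 0 (2 with proximal tubule scaling), 1 at an unadjusted p below 0.05, with a median of 0.23. Xpr1, the cellular phosphate exporter, had 147 and 161 CPM in the DMXAA libraries, against 134, 140 and 119 CPM in the vehicle libraries, and Slc17a1, an anion carrier of the proximal brush border, had 601 and 630 CPM, against 442, 568 and 432 CPM. Both were higher in every DMXAA library. The intestinal-type carrier Slc34a2 was rare, at 4.66 and 4.93 CPM in DMXAA and 4.38, 3.24 and 4.60 CPM in vehicle.

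Of 11 genes for phosphate hormone receptors, their G proteins and vitamin D enzymes, 8 had estimates above 0 (1 with proximal tubule scaling). The median was 0.087, and 0.034 to 0.16 when 1 library was left out. In 3 genes, Vdr, Fgfr4 and Cyp24a1, both DMXAA libraries lay above all vehicle libraries, against 13.7% of all tested genes. Vdr, the vitamin D receptor, had 292 and 297 CPM in the DMXAA libraries, against 234, 273 and 231 CPM in the vehicle libraries, and Fgfr4, an FGF receptor, had 42.6 and 46.2 CPM, against 38.1, 41.2 and 33.5 CPM. Both were added after their values were seen. The groups overlapped for Pth1r, Kl and Fgfr1. Pth1r, the parathyroid hormone receptor, had 604 and 624.5 CPM in the DMXAA libraries, against 534, 674.5 and 510 CPM in the vehicle libraries. Kl, the FGF23 co-receptor klotho, had 809 and 905 CPM, against 723, 939.5 and 758.5 CPM, and Fgfr1 had 68.7 and 60.2 CPM, against 62.7, 63.2 and 73.3 CPM. The 95% intervals were -0.25 to 0.46 for Pth1r and -0.28 to 0.45 for Kl on the log2 scale. Cyp24a1, the enzyme that breaks down active vitamin D, had the smallest p of the list, with 101.2 and 299 CPM in the DMXAA libraries, against 41.7, 21.2 and 33.2 CPM in the vehicle libraries. Its log2 fold change was 2.64 (SE 0.46, edgeR adjusted p = 0.547), and DESeq2 called it higher (adjusted p = 0.0117). Both DMXAA libraries lay above all vehicle libraries.

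Anchoring proteins of the microvillus mostly had small positive estimates, 12 of 13 above 0 (2 with proximal tubule scaling) with a median of 0.18 and 2 at an unadjusted p below 0.05. The median was 0.11 without vehicle library 1 and 0.29 without vehicle library 2. Ezr, which ties NHERF1 to actin, had 496 and 510 CPM in the DMXAA libraries, against 366, 487 and 443 CPM in the vehicle libraries. Slc9a3r2, encoding NHERF2, had 65.3 and 67.3 CPM, against 68.0, 50.03 and 61.9 CPM, and Pdzk1ip1, whose protein binds PDZK1, had 471 and 498 CPM, against 407, 661 and 530 CPM. Msn, a relative of ezrin found mainly outside the tubule epithelium, had the smallest p of the list, with 235.5 and 263 CPM, against 195, 211 and 203 CPM (log2 fold change 0.295, SE 0.098, edgeR adjusted p = 0.736).

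The medians of the relatives of Slc9a3 and Slc4a4 changed with the vehicle library left out. Of 9 tested genes of other sodium-proton exchangers and their cofactor, 3 had estimates above 0 (0 with proximal tubule scaling), and the median was -0.069, but -0.00033 without vehicle library 1 and -0.18 without vehicle library 2. Slc9a8 had 227 and 184 CPM in the DMXAA libraries, against 231, 173 and 123 CPM in the vehicle libraries, and Slc9a2 had 51.1 and 55.0 CPM, against 42.8, 61.1 and 44.65 CPM. Of 8 tested Slc4 relatives 1 had an estimate above 0 (0 with proximal tubule scaling) and the median was -0.22, but -0.049 without vehicle library 1. Among them were Slc4a2 at 66.2 and 63.2 CPM in DMXAA and 59.3, 59.2 and 63.6 CPM in vehicle, Slc4a7 at 18.9 and 19.4 CPM against 31.5, 17.2 and 19.4 CPM, and Slc4a1 at 59.2 and 65.2 CPM against 63.4, 73.4 and 95.3 CPM. On the centred log2 scale the median over the exchanger list was 0.32 in vehicle library 1 and -0.080 to 0.029 in the other 4 libraries. The median over the Slc4 list was 0.15 in vehicle library 1 and -0.13 to 0.016 in the others.

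Partners of bicarbonate reclamation gave 8 of 10 estimates above 0 (2 with proximal tubule scaling), none at an unadjusted p below 0.05, and a median of 0.12. That median was 0.029 without DMXAA library 2 and 0.18 without DMXAA library 1. Car4, the carbonic anhydrase of the brush border, had 123 and 141 CPM in the DMXAA libraries, against 105, 127 and 100.8 CPM in the vehicle libraries. Car2, the cytosolic enzyme, had 404 and 457 CPM, against 395, 455 and 376 CPM. The groups overlapped for both.

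The proximal tubule list itself had 12 of 14 estimates above 0 (7 when scaled to its own sum) and a median of 0.27. Of its genes, 5 were higher at an unadjusted p below 0.05 and none lower, against 3.89% of all tested genes higher. In 9 both DMXAA libraries lay above all vehicle libraries, against 13.7% of all tested genes, and in none did both lie below. The endocytic receptor gene Lrp2 had 2297 and 2417 CPM in the DMXAA libraries, against 1755, 1992 and 1905 CPM in the vehicle libraries, and the amino acid carrier Slc6a19 had 397 and 382 CPM, against 320, 327 and 303 CPM. The glucose carrier Slc5a2 had 291 and 362.5 CPM in the DMXAA libraries, against 200.4, 237 and 194 CPM in the vehicle libraries. Slc5a12, a lactate carrier, had the smallest p of the list, with 321.2 and 380.0 CPM, against 211.4, 203.1 and 231.1 CPM (log2 fold change 0.70, SE 0.12, edgeR adjusted p = 0.535). DESeq2 called both Slc5a2 and Slc5a12 higher. The median of the 8 transport genes, 0.30, was close to the median of this list. Of 6 genes of the straight segment (S3), 4 had estimates above 0 (0 with proximal tubule scaling), and the median was 0.054, but -0.079 without vehicle library 1 and 0.19 without vehicle library 2. There, Slc7a13 had 950 and 709 CPM in the DMXAA libraries, against 796, 802 and 492 CPM in the vehicle libraries, and Atp11a had 1507 and 1409 CPM, against 1390, 1352 and 1063 CPM. Slc6a18, an amino acid carrier, had 716 and 726 CPM, against 514, 790 and 722.5 CPM. Cyp7b1 had the smallest p of the S3 list and the opposite sign, with 148 and 89.45 CPM, against 179, 177 and 143 CPM. The difference between the S3 list and the other lists was not tested.

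**Figure D5:**
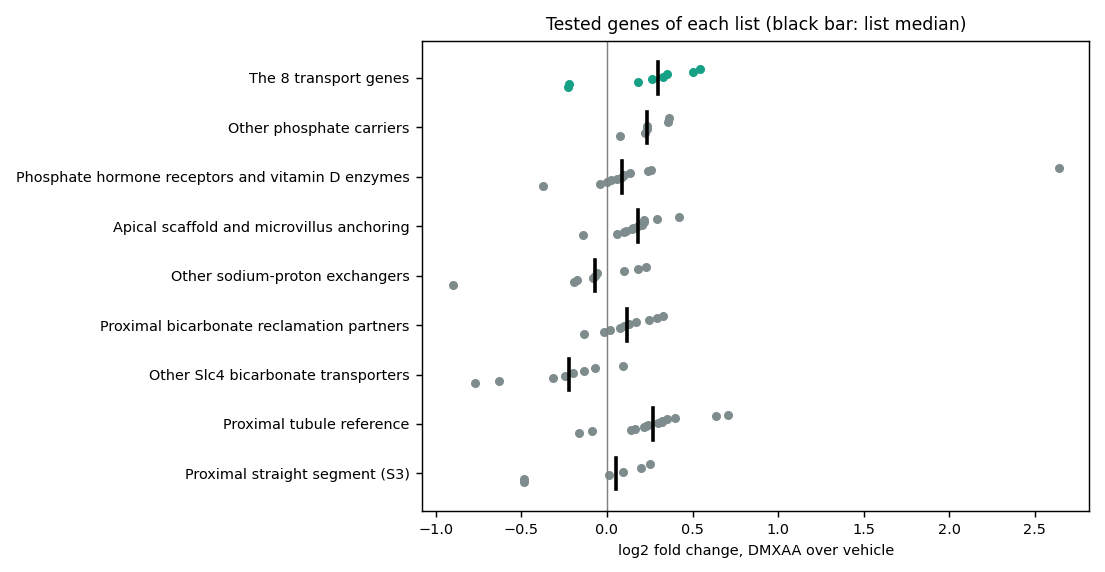
Log2 fold change, DMXAA over vehicle, of every tested gene in the 8 transport genes (green) and in the 8 pathway lists (grey), with a black bar at each list's median. The medians run from -0.22 for the other Slc4 genes to 0.30 for the 8 transport genes, and the point at 2.64 is Cyp24a1.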

How the data were processed

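Kidney RNA was sequenced in 5 libraries, extracted with Trizol per the labels' protocols, which name a TruSeq and a NEBNext kit without saying which served which sample, so a kit batch could not be tested. The authors deposited raw read counts per Ensembl gene ID. HISAT2, featureCounts, Subread, DESeq2 1.16.1 and build mm10 are named in the submitters' processing notes. The sources used here give no annotation, no strand setting and no rule for multi-mapping reads. Columns were matched to samples by name, CO read as control and XA as DMXAA. GENCODE M21 gave symbols for 54495 of the 54532 gene IDs, exon lengths and mm10 coordinates. Promoter sequences are RefSeq's on GRCm38.p6.

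Genes were fitted in R 4.3.3 with edgeR 4.0.16 (glmQLFit and glmQLFTest, two-sided). Libraries were scaled by TMM, filterByExpr kept 16226 genes, and group was the only term, with Benjamini-Hochberg adjustment over all tested genes, called below 0.05. SE is the log2 fold change over the root of F. CPM is TMM-normalised and computed here. Shares and ratios used exact permutation tests over samples (scipy 1.17.1). Simulated counts for these 16226 genes, 2 libraries against 3, were used to test the fits: edgeR recovered 72 of 100 genes set to change 2-fold and 97 of 100 set to change 4-fold, with 7 false calls. DESeq2 1.42.0 recovered 75 and 98, with 16 false calls. Each simulated gene took the dispersion of the fitted trend, without a spread of its own, and changed genes were drawn only from the better expressed. These recoveries therefore check the fits and do not give the power in the real libraries. Every pair of libraries differed by more than sampling noise, with chi-square values of 7.98 to 42.6 per degree of freedom.

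The 8 genes and the lists were chosen with earlier results of these data known. Named from each list were its first 3 genes and the one with the smallest p, and for each of the 8 genes the 2 nearest profiles. Some genes that this rule names are not reported here. Alternatives were other tests, filters, scalings, a length and GC correction, a replicate block and leaving out each library.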

Additional observations from a re-analysis of the deposited data

How the results depend on the processing

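The 6 higher and 2 lower estimates kept their direction under every alternative fit except scaling to the proximal tubule genes, which gave Slc34a1 at -0.096, Slc9a3r1 at -0.0096 and the median of the 8 at 0.019. Slc34a1, one of the 20 genes with the most counts, was not tested where those were left out. DESeq2 called 58 genes over the table and 1 of the 8, Slc9a3 (log2 fold change 0.50). Fits by edgeR called 34 genes without an expression filter, 4 with the replicate block, 1 with the replicate block and the length and GC correction, and 0 to 2 when 1 library was left out, none of them among the 8. The 34 include Cyp24a1 and Slc5a12 of the pathway lists. DESeq2 without each library in turn, chosen after the data were seen, called 22 and 4 genes without DMXAA libraries 1 and 2, and 139, 181 and 37 without vehicle libraries 1, 2 and 3. Slc9a3 was then at 0.43 to 0.58 (called at 0.515 and 0.435 without vehicle libraries 1 and 2), Pdzk1 at 0.41 to 0.67 (called at 0.554 and 0.618 without the same libraries) and Slc9a3r1 at 0.20 to 0.39 (called at 0.389 without vehicle library 2). With the replicate block Slc34a1 was at 0.075 and Slc9a3 at 0.56. Deviations from the group means correlated at 0.075 and 0.081 across genes for replicate numbers 1 and 2. The deviations of the 2 DMXAA libraries mirror each other, so these are not separate checks. They cannot exclude that replicate numbers pair the samples. The group differences in shares and ratios moved by less than 1 SD between replicates, but several by over 1.5 times: the difference in the Slc34a1 share was 0.228 percentage points, and -0.0522 without vehicle library 3, 0.459 without vehicle library 2 and 0.488 from counts not divided by length. For the Slc34a3 share it was 0.258, and 0.117 without vehicle library 2, 0.4199 without vehicle library 3 and 0.1345 without the division. Slc20a1, with 384 to 567 counts, has the largest counting error of the 8.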
